A study of Caenorhabditis elegans with 6 samples.

Results

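The genes described here are the 10 named genes of the X-chromosome dosage compensation complex of Caenorhabditis elegans: dpy-21, dpy-26, dpy-27, dpy-28, dpy-30, sdc-1, sdc-2, sdc-3, mix-1 and capg-1. They were chosen by gene name in the deposited table, and all 10 were found among its 22416 genes with counts. All 10 also passed the filter on low counts, which kept 14677 genes for testing. Their transcripts were counted in polyA-selected RNA sequencing libraries from pools of whole worms: 3 pools fed on RNAi bacteria that target nol-56 (nol-56 RNAi) and 3 pools fed bacteria with the empty vector (EV control). Every pool was of the strain CL2006, genotype unc-54p::Abeta, in which the body wall muscle promoter of unc-54 drives a human amyloid-β peptide, so the controls carry this transgene as well. Worms were grown at 20 °C on EV bacteria to the L4 larval stage, moved to their RNAi bacteria, transferred daily to remove progeny and collected on day 6 of adulthood. The study's question for this comparison was what loss of the nucleolar protein NOL-56 does in worms challenged by a toxic aggregating peptide.

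Dosage compensation in C. elegans lowers transcription from both X chromosomes of XX hermaphrodites, so that their X expression matches that of XO males with a single X. The complex that does this is built around a condensin, a ring-shaped machine of the SMC family that loops and compacts chromosomes, and most subunits of this condensin also work in condensin I, which shapes chromosomes in mitosis and meiosis. SDC-2, made in XX embryos, brings the complex to the X together with SDC-3 and DPY-30, and DPY-21, a histone demethylase, changes the marks on X chromatin once the complex is bound. Dosage compensation acts in somatic cells, while many subunit transcripts are supplied to the embryo by the maternal germline, in which the X is little transcribed.

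Libraries held 21138955 to 34841215 gene counts. The targeted transcript followed the labels, with nol-56 counts of 518, 442 and 339 in nol-56 RNAi libraries 1 to 3, against 5878, 9029 and 8288 in EV control libraries 1 to 3. Levels below are CPM, counts scaled to a common library total with TMM factors, unless given per length, and each fold change divides nol-56 RNAi by EV control. Adjusted p-values are from edgeR's quasi-likelihood test with Benjamini-Hochberg adjustment over all genes tested, two-sided, with a threshold of 0.05. The spread within groups was low (biological coefficient of variation 3.93%), which lets small differences pass the test. The labels do not state whether the pools were separate cultures, so this spread, and the p-values that rest on it, may be technical.

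All 10 genes of the complex were lower in nol-56 RNAi worms, in a background in which 40.8% of the genes tested were called lower, 47.2% higher and 88.0% either way. Their median log2 fold change was −0.74, beside 0.16 over all genes tested. The changes fell into a wide range, from −1.30 for mix-1 to −0.41 for dpy-30. The background differed with level and chromosome. The complex genes lie in the highest tercile of level, cut on edgeR's average log2 CPM (above 5.3). This is the log2 of an abundance averaged over libraries, and not a mean of log2 values. In that tercile 73.4% of autosomal genes were called lower, with a median log2 fold change of −0.48. For X-linked genes in it the values were 24.9% and 0.47. Summed over the 10 genes, the level was 857, 854 and 864 CPM in nol-56 RNAi libraries and 1631, 1554 and 1524 CPM in EV control libraries. For every one of the 10 genes the 3 nol-56 RNAi libraries lay below the 3 EV control libraries, as they did for 40.9% of the genes tested. In RNA from whole worms, fewer cells of a type and less RNA per cell cannot be told apart.

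**Figure D1:**
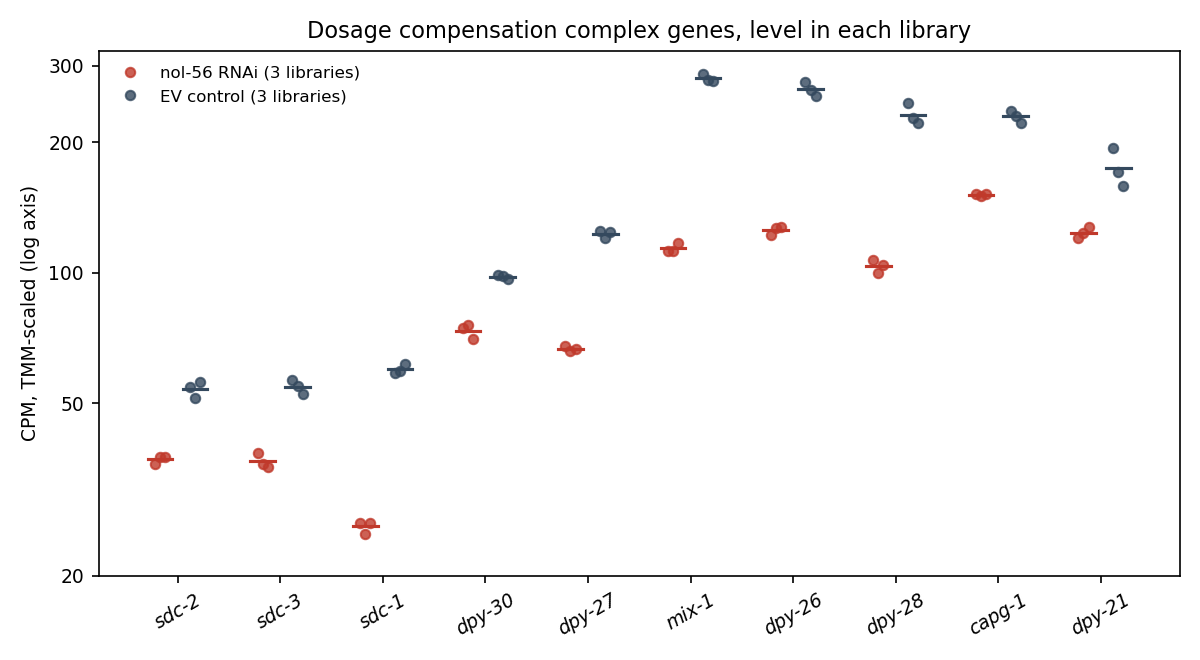
Level of each dosage compensation complex gene in each library, in TMM-scaled CPM on a log axis, with red points for the 3 nol-56 RNAi libraries, dark points for the 3 EV control libraries and a line at each group's mean. The 3 nol-56 RNAi points lie below the 3 EV control points for all 10 genes. On the log axis the group means lie furthest apart at mix-1 (113.8 and 280.8 CPM) and closest at dpy-30 (73.5 and 97.9 CPM).

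Among the genes that bring the complex to the X, sdc-2 encodes the XX-specific protein that starts assembly and also represses the male-determining gene her-1. It lies on the X itself (chromosome X, 11522707 to 11533450, plus strand, build WBcel235). Its level was 36.3, 37.6 and 37.6 CPM in nol-56 RNAi libraries, against 54.6, 51.3 and 55.9 CPM in EV control libraries. The groups did not overlap, and the log2 fold change was −0.54 (standard error 0.05, adjusted p = 1.44e-09). Its exons share 1181 bases with the antisense RNA gene anr-16, which averaged 12.8 counts per library. Whether counting used strand is not given, and how reads in the shared bases were assigned was not tested.

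The zinc finger protein gene sdc-3 (chromosome V, 15039148 to 15048207, minus strand) moved with sdc-2. It had 38.5, 36.3 and 35.7 CPM in nol-56 RNAi libraries, against 56.5, 54.8 and 52.6 CPM in EV control libraries, a log2 fold change of −0.57 (standard error 0.05, adjusted p = 6.28e-10). The ratio of sdc-3 to sdc-2 counts within a library gave overlapping groups, with a mean log2 ratio of −0.01 ± 0.09 in nol-56 RNAi and 0.02 ± 0.10 in EV control (SD, n = 3 each). This ratio was compared by an exact permutation test over libraries, two-sided, which gave p = 0.9.

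A larger fall was seen for sdc-1 (chromosome X, 16275763 to 16282534, plus strand), another zinc finger gene that acts in both dosage compensation and sex determination. Its level was 26.5, 25.04 and 26.4 CPM in nol-56 RNAi libraries, against 58.6, 59.5 and 61.6 CPM in EV control libraries, which is 2.31-fold lower (log2 fold change −1.21, standard error 0.05, adjusted p = 1.35e-15). The other X-linked gene of the complex, sdc-2, changed less. Their log2 count ratio, sdc-1 over sdc-2, was −0.45, −0.58 and −0.51 in nol-56 RNAi libraries and 0.10, 0.21 and 0.14 in EV control libraries, a pair chosen after its values were seen and given with no test.

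The smallest change belonged to dpy-30 (chromosome V, 12191519 to 12192385, plus strand), whose product helps SDC-3 reach the X and is also a subunit of the MLL/COMPASS histone H3 methyltransferases in all cells. It had 74.7, 75.7 and 70.2 CPM in nol-56 RNAi libraries, against 98.6, 98.4 and 96.7 CPM in EV control libraries (log2 fold change −0.41, standard error 0.04, adjusted p = 7.53e-09). dpy-30 is a short gene with 587 bases of exon sequence, of which 7 are shared with the neighbouring rnp-1 on the same strand. With upper-quartile factors, which moved the median of all genes up by 0.25, its change was −0.17 and still passed the threshold, and those of dpy-21 (−0.24), sdc-2 (−0.29), sdc-3 (−0.32) and capg-1 (−0.35) also shrank by more than 1.5 times. With genes above 5 CPM alone, a smaller set of 9931 genes with a median of −0.013, dpy-30 stood at −0.27 and again passed the threshold.

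The condensin core of the complex has 5 subunits, and only DPY-27 is used in dosage compensation alone. dpy-27 (chromosome III, 3813018 to 3819679, minus strand), which encodes the SMC4-type ATPase of the complex, had 67.7, 66.1 and 66.6 CPM in nol-56 RNAi libraries, against 124.9, 120.1 and 124.2 CPM in EV control libraries. Its log2 fold change was −0.88 (standard error 0.04, adjusted p = 6.74e-15). mix-1 (chromosome II, 10824246 to 10841424, plus strand) encodes the SMC2-type ATPase that pairs with DPY-27 here and with SMC-4 in the other condensins. It had 112.2, 112.4 and 116.9 CPM in nol-56 RNAi libraries, against 287.4, 278.6 and 276.6 CPM in EV control libraries, the largest fall among the 10 genes at 2.47-fold (log2 fold change −1.30, standard error 0.04, adjusted p = 1.19e-17). Its exons share 43 bases with M106.8 on the opposite strand.

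The other core genes split into a pair with large falls and capg-1 with a smaller one. dpy-26, the kleisin gene that closes the ring (chromosome IV, 12445801 to 12451335, minus strand), had 122.3, 127.1 and 127.4 CPM in nol-56 RNAi libraries, against 274.9, 263.6 and 255.3 CPM in EV control libraries (log2 fold change −1.07, standard error 0.04, adjusted p = 3.53e-16). It shares 84 exon bases with C25G4.3 on the same strand. dpy-28, a HEAT-repeat subunit gene (chromosome III, 10763131 to 10777076, plus strand), had 106.9, 99.96 and 104.01 CPM in nol-56 RNAi libraries, against 246.2, 227.2 and 220.9 CPM in EV control libraries (log2 fold change −1.16, standard error 0.05, adjusted p = 4.4e-16).

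The other HEAT-repeat subunit gene, capg-1 (chromosome I, 7634492 to 7639785, minus strand), had 152.0, 150.1 and 151.6 CPM in nol-56 RNAi libraries, against 235.7, 230.2 and 221.6 CPM in EV control libraries. Its log2 fold change was −0.60 (standard error 0.04, adjusted p = 3.65e-12). It was the core gene with the smallest change. The log2 ratio of mix-1 to capg-1 counts was −0.44, −0.42 and −0.38 in nol-56 RNAi libraries and 0.29, 0.28 and 0.32 in EV control libraries, again a pair chosen after its values were seen and not tested.

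dpy-21 (chromosome V, 17936282 to 17949193, minus strand) encodes the Jumonji-type demethylase that raises the monomethylated form of a histone H4 lysine on the X. Its level was 120.1, 123.7 and 127.3 CPM in nol-56 RNAi libraries, against 193.5, 170.8 and 158.0 CPM in EV control libraries. EV control library 1 stood highest and the groups did not overlap (log2 fold change −0.49, standard error 0.06, adjusted p = 2.37e-08). Against set-4, the gene of a methyltransferase that adds further methyl groups to the same lysine, its ratio gave overlapping groups. The log2 ratio of dpy-21 to set-4 counts was 1.32 ± 0.10 in nol-56 RNAi and 1.22 ± 0.12 in EV control libraries (SD, n = 3 each, exact permutation p = 0.3).

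**Figure D2:**
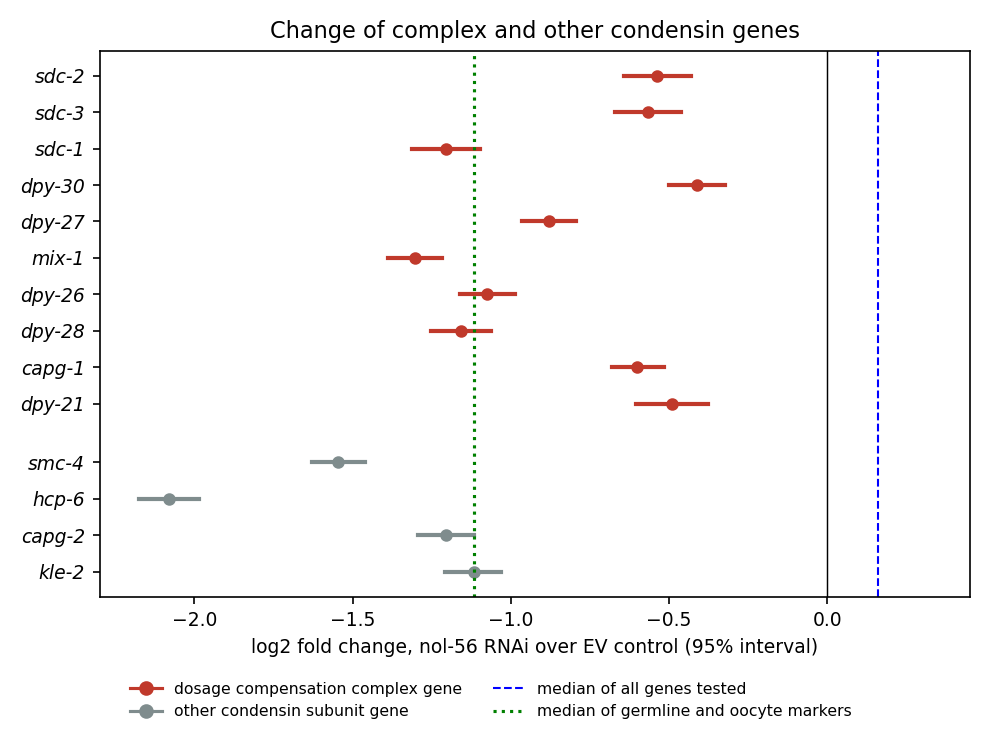
Log2 fold change of nol-56 RNAi over EV control with its 95% interval from the edgeR fit, in red for the 10 dosage compensation complex genes and in grey for the 4 other condensin subunit genes. Every interval lies below 0 and below the median of all genes tested (dashed line at 0.16). The median of the germline and oocyte markers (dotted line at −1.12) runs through the complex genes. The whole intervals of sdc-2, sdc-3, dpy-30, dpy-27, capg-1 and dpy-21 lie to its right and that of mix-1 to its left. The intervals of dpy-26 (−1.07), dpy-28 (−1.16) and sdc-1 (−1.21) cross it.

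Per length, as TPM (counts over union exon length, scaled to the same total in every library), dpy-30 was the most abundant of the 10 transcripts in both groups, at 195 ± 6.99 TPM in nol-56 RNAi and 245 ± 3.002 TPM in EV control (SD, n = 3 each). The sdc genes were the least abundant, with sdc-2 lowest at 6.26 ± 0.136 TPM in nol-56 RNAi and 8.56 ± 0.442 TPM in EV control. The order of the condensin core changed between the groups. In nol-56 RNAi it ran capg-1 (61.5 TPM), dpy-26 (46.2 TPM), mix-1 (43.5 TPM), dpy-28 (34.6 TPM) and dpy-27 (19.6 TPM). In EV control it ran mix-1 (101.2 TPM), dpy-26 (91.7 TPM), capg-1 (87.9 TPM), dpy-28 (72.9 TPM) and dpy-27 (34.1 TPM), with the library ranges of dpy-26 and capg-1 overlapping. Between dpy-28 and dpy-21 (34.0 TPM) the ranges overlapped in nol-56 RNAi, and all other neighbours in either order kept apart in every library. The transcript of the dosage-specific DPY-27 was thus the scarcest of the 5 core transcripts in both groups.

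The genes for condensin subunits outside the complex were lower too. Of 4, all 4 were lower, with a median log2 fold change of −1.37. The share called lower was 40.8% of all genes tested and 73.4% of autosomal genes in the highest tercile of level. smc-4, whose product replaces DPY-27 in condensins I and II, had 185.8, 188.0 and 191.8 CPM in nol-56 RNAi libraries, against 558.4, 556.7 and 535.6 CPM in EV control libraries (log2 fold change −1.54, standard error 0.04, adjusted p = 1.18e-18). The condensin II gene hcp-6 fell furthest, to 62.0 ± 2.55 CPM in nol-56 RNAi, against 262 ± 9.28 CPM in EV control (SD, n = 3 each), and capg-2 (−1.21) and kle-2 (−1.12), of the same condensin, were lower as well.

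Ratios within a library, which need no scaling, set complex genes against these relatives. The log2 ratio of dpy-27 to smc-4 was −1.46, −1.51 and −1.53 in nol-56 RNAi libraries, against −2.16, −2.21 and −2.11 in EV control libraries, so the dosage-specific SMC transcript gained 1.58-fold on the general one. The ratio of dpy-27 to its partner mix-1 was 1.34-fold higher in nol-56 RNAi, that of capg-1 to capg-2 was 1.52-fold higher, and that of dpy-28 to hcp-6 was 1.90-fold higher. In contrast, the kleisin pair dpy-26 and kle-2 had log2 ratios of 0.57 ± 0.08 in nol-56 RNAi and 0.52 ± 0.02 in EV control (SD, n = 3 each), and the groups overlapped. sdc-2 gained 1.27-fold on dpy-27. In the other direction, dpy-30 lost against ash-2, the gene of its binding partner in MLL/COMPASS, by 1.44-fold. Of 9 such ratios, the groups did not overlap in 6, while the same held for 78.3% of all pairs among the 14640 genes tested that had reads in every library, so the count of separated ratios is no result about these pairs. Each of the 6 had an exact permutation p = 0.1 (two-sided, n = 3 each, adjusted over the 9 ratios p = 0.15), the smallest that 3 libraries against 3 can give, so no ratio can pass the threshold by this test.

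**Figure D3:**
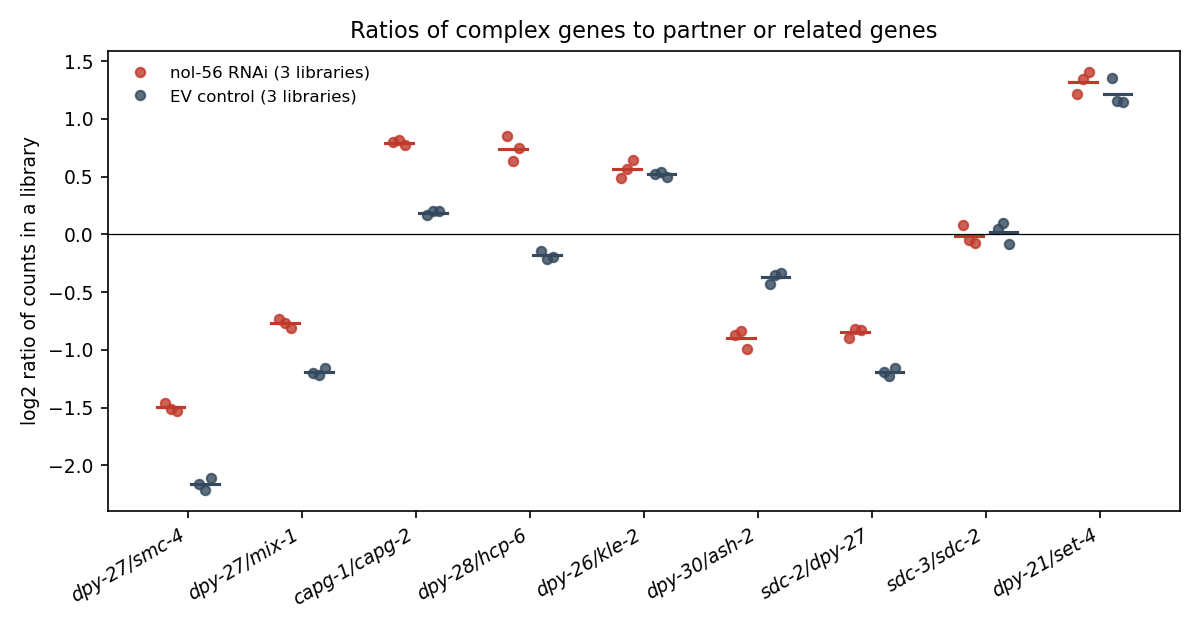
Log2 ratio of the counts of a dosage compensation complex gene to those of another gene in the same library, with red points for the 3 nol-56 RNAi libraries, dark points for the 3 EV control libraries and a line at each group's mean. The groups stand apart for 6 of the 9 pairs and overlap for dpy-26/kle-2, sdc-3/sdc-2 and dpy-21/set-4. Among the 6 that stand apart, only dpy-30/ash-2 has the lower ratio in nol-56 RNAi (−0.90, against −0.37 in EV control).

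The related cohesin and SMC5/6 genes, which hold sister chromatids together and act in DNA repair, were lower in 14 of 14 cases with a median log2 fold change of −1.17. Among all genes tested 40.8% were called lower, and among autosomal genes in the highest tercile of level 73.4%. The SMC genes among them stood near mix-1 (−1.30), with log2 fold changes of −1.46 for smc-3, −1.37 for smc-6, −1.25 for him-1 and −1.17 for smc-5. The mitotic kleisin gene scc-1 had the smallest change (−0.62), and the loading factor gene pqn-85 and the release factor gene wapl-1 stood at −1.07 and −1.20. The meiotic kleisin genes rec-8 (−1.16), coh-3 (−0.84) and coh-4 (−1.71) were lower, but coh-3 and coh-4 are close copies whose reads may not be separable.

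Partners of DPY-30 in MLL/COMPASS were lower in 8 of 9 cases, with a median of −0.66. Beside this, 40.8% of all genes tested were called lower. Of autosomal genes in the highest tercile of level, 73.4% were, with a median of −0.48. The methyltransferase genes set-2 (−1.03) and set-16 (−0.78), the core subunit gene rbbp-5 (−1.16) and the demethylase gene utx-1 (−1.18) were lower. Closer to dpy-30 (−0.41) were wdr-5.1 (−0.41), swd-2.2 (−0.40) and cfp-1 (−0.35). The 1 gene called higher, ash-2, had 136.2, 134.9 and 140.0 CPM in nol-56 RNAi libraries and 132.5, 125.5 and 122.2 CPM in EV control libraries (0.11, adjusted p = 0.0141). That direction depended on the scaling, since with RLE factors ash-2 stood at −0.025 (adjusted p = 0.62), and the call was lost without EV control library 2 (adjusted p = 0.0849) or 3 (0.104).

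Upstream of the complex, sex is read from the ratio of X-linked to autosomal signal genes, which set the switch gene xol-1. Of 6 signal and switch genes tested, 5 were lower and none higher, with a median of −1.68. Over all genes tested 40.8% were called lower, and over X-linked genes 19.8%. The X signal genes sex-1, a nuclear receptor gene, and ceh-39, a homeobox gene, were 3.34-fold and 3.33-fold lower, with sex-1 at 18.8 ± 1.68 CPM in nol-56 RNAi and 62.5 ± 0.548 CPM in EV control (SD, n = 3 each). The X signal gene fox-1, which encodes an RNA-binding protein, stood at −0.77, and the autosomal signal gene sea-1 at −2.24. xol-1, which is active in XO embryos and blocks the complex there, was at a low level, with 0.402, 0.813 and 0.554 CPM in nol-56 RNAi libraries and 1.94, 1.95 and 1.63 CPM in EV control libraries (log2 fold change −1.63, standard error 0.25, adjusted p = 2.73e-06). The other autosomal signal gene, sea-2, was not called (−0.06, adjusted p = 0.198), and was called higher with upper-quartile factors (0.19, adjusted p = 0.0002) and lower with RLE factors (−0.20, adjusted p = 0.000681).

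In the sex determination pathway downstream, 8 of 10 genes were lower and 1 higher, with a median of −0.48. Over all genes tested, 40.8% were called lower. For autosomal genes in the highest tercile of level the share was 73.4%, with a median of −0.48. The count of lower genes is therefore no result about this pathway. her-1, the male-determining ligand gene that SDC-2 and SDC-1 repress in XX animals, was lower. Its level was 1.37, 1.42 and 1.43 CPM in nol-56 RNAi libraries, against 4.57, 4.61 and 3.27 CPM in EV control libraries (log2 fold change −1.55, standard error 0.18, adjusted p = 3.86e-08). The receptor gene tra-2 (−0.65), the terminal regulator gene tra-1 (−0.43), the masculinising genes fem-1 (−0.84) and fem-2 (−0.47), and the germline sex genes fog-1 (−0.44), fog-2 (−0.48) and fog-3 (−1.45) were lower. fem-3 was called higher (0.25, adjusted p = 0.000406), though not with RLE factors (0.11, adjusted p = 0.106) or DESeq2 (0.09, adjusted p = 0.325). The protease gene tra-3 was not called (−0.11, adjusted p = 0.0921), while upper-quartile factors put it on the higher side of the threshold (0.14, adjusted p = 0.0346) and RLE factors on the lower side (−0.25, adjusted p = 0.00122).

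Chromatin factors that act on the compensated X were lower in 6 of 7 cases, with a median of −0.83. For comparison, 40.8% of all genes tested were called lower. The share was 73.4% among autosomal genes in the highest tercile of level, with a median of −0.48. The histone H4 methyltransferase genes set-1 (−0.83) and set-4 (−0.59), the deacetylase gene sir-2.1 (−0.78) and the histone variant gene htz-1 (−0.88) were lower, as were met-2 (−0.98) and set-25 (−0.96), whose products methylate histone H3 for anchoring at the nuclear edge. The anchor gene cec-4 averaged 38.4 ± 1.97 CPM in nol-56 RNAi and 38.1 ± 2.61 CPM in EV control (SD, n = 3 each; log2 fold change 0.01, 95% interval −0.11 to 0.14, adjusted p = 0.824), and its sign and call changed with the settings. It was called higher with upper-quartile factors (0.26, adjusted p = 0.000413) and with genes above 5 CPM alone (0.16, adjusted p = 0.0179), and stood at −0.12 with RLE factors (adjusted p = 0.0622).

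Markers of the germline and the embryo moved with the complex genes in the same libraries. As a background, 40.8% of all genes tested were called lower and 47.2% higher. All 24 germline and oocyte markers were lower (median −1.12), with htp-3 (−2.04), daz-1 (−1.60) and glh-2 (−1.50) at the smallest p, and their summed level, in CPM without TMM factors, was 6259 to 6658 in nol-56 RNAi and 12520 to 13490 in EV control libraries. Of 15 early embryo markers, none was at 0 in every library, 10 had enough reads to be tested and all 10 of these were lower (median −2.52), among them vet-2 (−2.83), vet-6 (−3.62) and tbx-9 (−1.54). Their sum was 18.6 to 20.3 CPM in nol-56 RNAi and 89.8 to 102 in EV control libraries. Of 9 sperm markers 5 were tested, with spe-41 (0.84) and fer-1 (0.61) among 3 that were higher and gsp-3 (−1.96) the 1 that was lower, at a sum of 16.6 to 18.8 CPM in nol-56 RNAi and 10.7 to 11.8 in EV control libraries. Neuron (15 of 15), body wall muscle (12 of 12) and intestine markers (12 of 12) were higher, with medians of 1.06, 1.00 and 1.06.

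Set against the summed counts of the 24 germline markers in the same library, an index added after the values were seen and given with no test, the complex genes differed in direction. On this index the groups did not overlap for 92.2% of the genes tested, 85.1% higher and 7.12% lower in nol-56 RNAi, so the lack of overlap for 8 of the 10 complex genes is near this background. mix-1 was lower, with a difference in log2 ratio of −0.21, and dpy-28 differed by −0.07 with only 0.005 between the nearest libraries of the groups. sdc-1 (−0.11) and dpy-26 (0.02) had overlapping groups. The other 6 were higher on the index, dpy-27 by 0.21, capg-1 by 0.49, sdc-3 by 0.52, sdc-2 by 0.56, dpy-21 by 0.60 and dpy-30 by 0.68 on the log2 scale. The part of germline and embryo content in the changes of the complex genes was not tested.

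The X chromosome, on which the complex acts, held genes that were mostly higher. Of 2195 X-linked genes tested, 66.7% were called higher and 19.8% lower, with a median log2 fold change of 0.75 and quartiles of −0.02 and 1.13. Of 12468 autosomal genes, 43.8% were higher and 44.5% lower, with a median of 0.01. The autosomes were not alike: chromosome V stood at a median of 0.67, close to the X, while chromosomes I, II, III and IV stood at −0.26, −0.10, −0.24 and 0.11. Both X-linked genes of the complex, sdc-1 and sdc-2, belonged to the X-linked genes called lower.

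The gap between X and autosomes was widest among well-expressed genes. In the highest tercile of edgeR's average log2 CPM, the median was 0.47 for 413 X-linked genes and −0.48 for 4469 autosomal genes. It was 0.66 and 0.38 in the middle tercile (937 and 3953 genes) and 0.91 and 0.72 in the lowest (845 and 4046 genes). Among the neuron, muscle and intestine markers together, where 39 of 39 genes were higher, the 8 X-linked genes had a median of 0.87 and the 31 autosomal genes 1.06, so the X-linked median was the lower one there. These are descriptions over genes, which are not replicates.

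Per library, the median log2 TPM of 2007 X-linked genes minus that of 11512 autosomal genes was −1.06, −1.06 and −1.07 in nol-56 RNAi, against −1.48, −1.44 and −1.38 in EV control. The means were −1.06 ± 0.005 in nol-56 RNAi and −1.43 ± 0.048 in EV control (SD, n = 3 each), a difference of 0.37, and the exact permutation test over libraries gave p = 0.1, two-sided, the smallest it can give. The median TPM of X-linked genes was thus 0.478 to 0.481 of the autosomal median in nol-56 RNAi and 0.359 to 0.384 of it in EV control. With chromosome V left out of the autosomes, an alternative added after seeing the data, the difference was 0.57 and the groups again stood apart.

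The share of all gene counts that came from the X was 16.7%, 17.1% and 17.6% in nol-56 RNAi libraries, against 8.82%, 9.1% and 9.32% in EV control libraries, a difference of 8.04 percentage points (exact permutation p = 0.1, the smallest possible, n = 3 each). Few genes carried much of it. The 5 X-linked vitellogenin genes, which encode yolk proteins made in the intestine, took 7.70% to 8.62% of counts in nol-56 RNAi and 2.97% to 3.15% in EV control libraries. Without the vitellogenin genes, left out after seeing the data, the X share was 10.4% to 10.7% in nol-56 RNAi and 6.2% to 6.55% in EV control libraries, a difference of 4.2 points, and without the 20 genes with the most counts the difference was 4.38 points. Germline markers were lower and somatic markers higher in the same libraries, and neither their part in the X-linked difference nor that of the complex genes was tested.

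**Figure D4:**
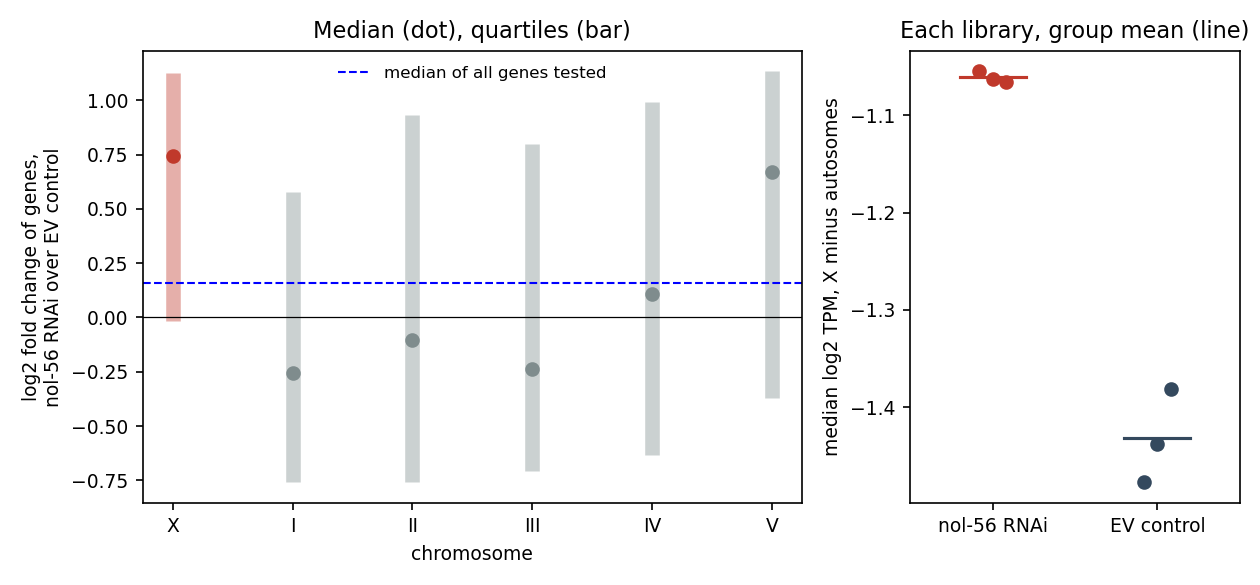
Left, log2 fold change of nol-56 RNAi over EV control for the genes of each chromosome, with a dot at the median, a bar between the quartiles and a dashed line at the median of all genes tested (0.16). Right, the median log2 TPM of X-linked genes minus that of autosomal genes in each of the 3 nol-56 RNAi and 3 EV control libraries, with a line at the group mean; the X has the highest median (0.75) with chromosome V next (0.67), and the nol-56 RNAi libraries (mean −1.06) lie above the EV control libraries (mean −1.43).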

How the data were processed

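Per the file headers, the deposited table has raw counts and DESeq2-normalized signal values for each gene in each library. The authors' signal was found to be the count over a library-wide size factor and was not used further. The tools and build in the submitters' processing notes, without roles, were DESeq2 1.36.0, HTSeq 2.01, TopHat2 2.1.1, cutadapt 2.10 and WBcel235; whether counting used strand is not given there. The 24518 rows without counts were left out. Positions, types and exon lengths came from the Ensembl 115 annotation of WBcel235.

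Counts were tested with edgeR 4.0.16 in R 4.3.3 (filterByExpr, TMM factors, group as the only term), and standard errors and 95% intervals were derived from its F statistic. TPM used counts over union exon length, and log2 TPM a pseudocount of 0.1 and genes with a mean of at least 1 TPM. Ratios and X measures were compared by exact permutation over libraries. Alternatives were other scalings and filters, a replicate block, each library left out, DESeq2 1.42.0 and limma-voom (limma 3.58.1). On simulated counts from this comparison (14465 genes tested), edgeR called 29 of 50 genes changed 1.25-fold and 43 of 50 changed 1.5-fold, and 4 of 14267 unchanged genes. The simulation gave all genes the same dispersion and changed few of them, evenly in both directions. In the data 88.0% of genes were called, so it cannot give the error rate under so broad a change. No library repeated another of its group (chi-square over genes 2.08 to 6.39 times its degrees of freedom).

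The genes of the complex, the 12 gene lists and the 9 ratios were chosen with earlier results of these data known. All 10 complex genes and nol-56 were named whatever their values, any pathway gene could be named, and up to 3 genes per marker list with the smallest p. sex-2, in the signal list, had no match. Sequences were not used here.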

Additional observations from a re-analysis of the deposited data

How the results depend on the processing

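All 140 log2 fold changes of the 10 complex genes under 14 alternatives kept their direction and passed the threshold, with adjusted p of at most 0.00089 (dpy-30, upper-quartile factors). The count of 10 lower complex genes was therefore the same in each. Over all genes tested, the median of 0.16 with TMM moved by −0.14 with RLE factors, 0.25 with upper-quartile factors and −0.11 with DESeq2, and higher genes were 53.6% of calls with TMM, 49.6% with RLE and 62.4% with upper-quartile factors. With genes above 5 CPM in at least 3 libraries, 4508 genes were called higher, against 6927, where 9931 genes were tested in place of 14677. The X minus autosome median log2 fold change of 0.74 was 0.61 with no filter, 0.89 with genes above 5 CPM, 0.66 with DESeq2 and 0.90 without chromosome V, and 0.69 to 0.75 with 1 library left out; the cause was not tested.

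Among the complex and pathway genes and the 9 ratios, signs changed for ash-2 (−0.025 with RLE, −0.045 with DESeq2), sea-2 (0.188 with upper-quartile factors, 0.035 with library totals, 0.088 with genes above 5 CPM), tra-3 (0.137 with upper-quartile factors, 0.037 with genes above 5 CPM) and cec-4 (−0.124 with RLE, −0.146 with DESeq2, and −0.055 to 0.055 with 1 library left out), and for the sdc-3/sdc-2 ratio (−0.086 to 0.005 with 1 library left out). Over the alternatives, adjusted p spanned 3.2e-08 to 0.62 for ash-2, 0.000413 to 0.978 for cec-4, 5.96e-08 to 0.325 for fem-3, 0.000179 to 0.536 for sea-2 and 0.00122 to 0.795 for tra-3. Replicate numbers did not pair the libraries (correlations of deviations −0.04 to 0.00 for same numbers). With the replicate block, 6893 genes were called higher and 5964 lower, and all 10 complex genes stayed lower. Low counts limit xol-1, her-1 and fog-3, with standard errors of 0.25, 0.18 and 0.15.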
